A study of Homo sapiens with 12 samples.

Results

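The 31 genes described here encode the proteins that bring glucose into the cell, carry it through glycolysis to pyruvate and lactate, and decide whether pyruvate enters the mitochondrion. They were listed by symbol, and all 31 were found among the 58051 genes of the count tables. RNA-seq was done in 12 libraries from 3 established human renal carcinoma lines, each grown in culture and transfected at 10 nM, with RNA taken 48 h later. 786-O cells gave 1 library with a control mimic and 1 with a miR-29 mimic, A-498 cells gave 2 of each, and ACHN cells gave 3 with a control inhibitor and 3 with a miR-29 inhibitor. A mimic is a synthetic RNA that adds miRNA activity, and an inhibitor is an oligonucleotide that blocks the miRNA already in the cell. The study states that the libraries of a group are biological replicates.

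Reads in genes ranged from 39919554 to 70027392 per library. Levels are CPM, counts divided by the size of the library after scaling with TMM factors, which correct for differences in library composition, and a gene was called where the edgeR adjusted p was under 0.05 over all genes tested. PAX8, a kidney lineage transcription factor, had 68.4 to 674 CPM across the libraries, the 4 leukocyte markers together had at most 0.638 CPM, and the 3 endothelial markers at most 0.471 CPM. Among the 10 renal markers, EPCAM was as low as 0.181 CPM in an A-498 library and CA9, a marker of clear cell tumours, as low as 0.0148 CPM in an ACHN library. In A-498, 8 of the 10 renal markers were higher with the mimic, beside 25.5% of all genes. The 10 together had 3523 to 3729 CPM in the controls and 4840 to 4969 CPM with the mimic. In ACHN, 6 of 9 tested were lower with the inhibitor, beside 14.4% of all genes. The 10 together had 5140 to 5500 CPM in the controls and 4233 to 4391 CPM with the inhibitor. VIM, KRT8 and KRT18 made up most of these sums. The 3 fibroblast markers together moved the other way, mostly through PDGFRB in A-498 and ACHN. Their sum was 1.58 to 1.72 CPM in the A-498 controls and 0.567 to 0.684 CPM with the mimic, 1.6 to 2.0 CPM in the ACHN controls and 2.93 to 3.67 CPM with the inhibitor, and 23.6 and 10.1 CPM in 786-O with the control and miR-29 mimic, where LUM alone had 18.2 CPM in the control. Of them, PDGFRB was called in both tested lines (log2 fold changes -1.51 and 0.79), DCN in ACHN (1.12) and LUM was not tested in either. In A-498, DCN overlapped between the groups and LUM had at most 0.0333 CPM. The part of these shifts in the results below was not tested. Because these are bulk samples, fewer cells with a transcript and less of it per cell cannot be told apart.

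Glucose enters most cells through facilitative transporters of the GLUT family and is trapped by hexokinase, which adds a phosphate. Phosphofructokinase makes the committed step of glycolysis, and its activity is set in part by fructose-2,6-bisphosphate, which the bifunctional PFKFB enzymes make and break down. Pyruvate is then reduced to lactate by lactate dehydrogenase, oxidised by the pyruvate dehydrogenase complex, which the PDK kinases switch off, or carboxylated to oxaloacetate by pyruvate carboxylase. Clear cell renal carcinomas are known for loss of VHL, stabilised hypoxia-inducible factors and high expression of glycolytic genes.

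A miRNA finds its targets mainly through its seed, nucleotides 2 to 8, which pairs with the 3′ UTR of the mRNA. The mature miR-29 sequences are shown because all members of the family share 1 seed, given in capitals, so that 1 search covers them all (RefSeq, GRCh38.p14).
hsa-miR-29a-3p: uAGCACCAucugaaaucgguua
hsa-miR-29b-3p: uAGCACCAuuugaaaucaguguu
hsa-miR-29c-3p: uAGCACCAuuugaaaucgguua

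The 3′ UTR of the main annotated transcript of each gene was searched on the transcribed strand for TGGTGCT, the exact complement of that seed. It was found once each in SLC2A3, GPI, PDK4 and PDHA1, which is 4 of 31 genes (12.9%), beside 14% of 19020 protein-coding genes. None of the 4 was followed by an A, the longer 8mer form that 3.18% of protein-coding genes had. The windows are shown, with the match in capitals, because these are the only genes of the group with the pairing sequence in the 3′ UTR of that transcript (GRCh38, transcribed strand). Coding sequence and 5′ UTRs were not searched.
SLC2A3, chr12:7919810-7919839, minus strand: ctttcccttctTGGTGCTtacacatctcag
GPI, chr19:34400356-34400385, plus strand: ttttcctgtgaTGGTGCTttatgtagcaga
PDK4, chr7:95583996-95584025, minus strand: gcctagtgttgTGGTGCTtctggtaatggt
PDHA1, chrX:19360014-19360043, plus strand: ccgagcagcgcTGGTGCTgcagcctgttcg

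The match lay 1585 nt after the stop codon in SLC2A3, 331 nt in GPI, 1627 nt in PDK4 and 372 nt in PDHA1. With the longest annotated 3′ UTR, PDK3 had a match as well, at 3832 nt. Counting matches of 6 nucleotides or more, a search added after the data were seen, 6 of 31 genes (19.4%) had one, beside 29.4% of protein-coding genes. SLC2A1, LDHA, PDHB and PC held no match of 7 in either transcript. Which 3′ UTRs these cells use was not tested.

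At baseline, the most abundant transcripts of the group in every line encoded enzymes of the steps from aldolase to lactate dehydrogenase. Compared per kilobase of exon, GAPDH, the enzyme that oxidises glyceraldehyde-3-phosphate, led with 1819 CPM per kb in the 786-O control, 1750 ± 42.8 (SD, n = 2) in the A-498 controls and 2936 ± 70.7 (SD, n = 3) in the ACHN controls. Next came PKM, the pyruvate kinase, in 786-O with 385 CPM per kb, ALDOA, an aldolase, in A-498 with 446 ± 19.8, and ENO1, an enolase, in ACHN with 600 ± 17.4. At the other end, FBP1, the gluconeogenic phosphatase that works against phosphofructokinase, had at most 0.0754 CPM per kb in these controls. Between 8 and 9 of the 31 genes reached 100 CPM per kb in the controls of each line, and 3 to 5 stayed under 1. Dividing by the length of the main transcript rather than by all exons kept GAPDH first in each line. It put PKM second in A-498.

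**Figure D1:**
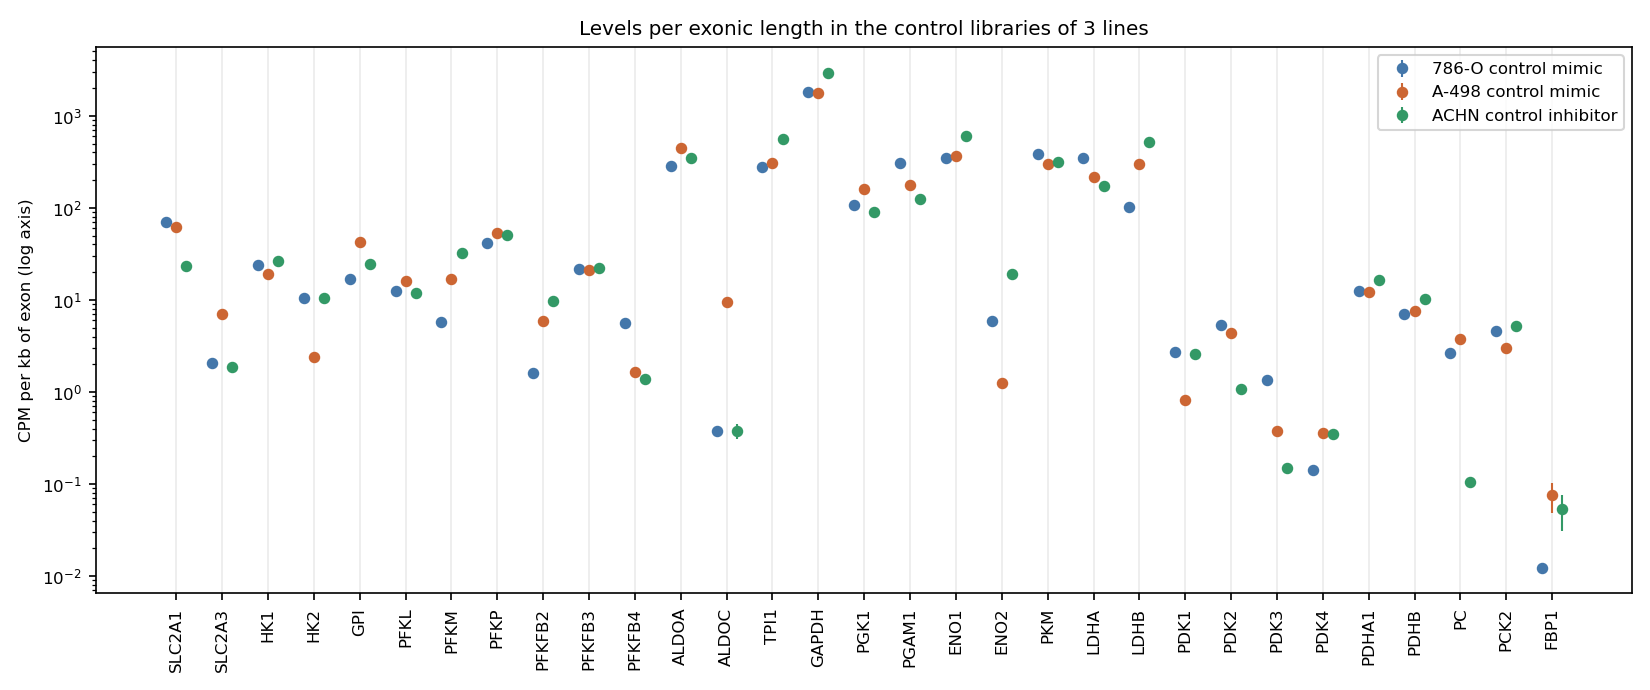
Levels of the 31 genes in the control libraries, as CPM per kb of exon on a log axis, with points for the 786-O control (1 library), the mean of 2 A-498 controls and the mean of 3 ACHN controls, and bars for the SD. GAPDH, ENO1, TPI1 and ALDOA lie above 100 CPM per kb in all 3 lines, and PC and ALDOC differ most between A-498 and ACHN.

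The control A-498 and control ACHN libraries differed in 26 of the 30 genes tested (edgeR, 79.8% of all genes called), 13 lower in A-498 (38.7% of all genes) and 13 higher (41%). The control reagent, a mimic in one line and an inhibitor in the other, cannot be told apart from the line. In 9 of the 30 genes the difference was at least 2-fold, beside 38.1% of all genes tested. The largest was that of PC, pyruvate carboxylase, with 28.5 and 26.1 CPM in the A-498 controls and 0.769, 0.757 and 0.775 CPM in the ACHN controls, a log2 difference of 5.15 (SE 0.0972, adjusted p = 1.61e-20). ALDOC, the brain-type aldolase, had 24.9 and 24.8 CPM in A-498 and 0.831, 1.18 and 0.95 CPM in ACHN, a log2 difference of 4.66 (SE 0.1, adjusted p = 1.38e-19). ENO2, the neuronal enolase, went the other way. It had 5.46 and 5.17 CPM in A-498 and 82.8, 81.2 and 81.6 CPM in ACHN, a log2 difference of -3.94 (SE 0.0661, adjusted p = 2.4e-21). The groups were far apart for all 3 genes.

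Isoforms of several steps were also unevenly divided between the lines. HK2, the inducible hexokinase, had 14.7 and 13.4 CPM in the A-498 controls and 61.9, 60.1 and 64.6 CPM in the ACHN controls (log2 difference -2.14, SE 0.0651, adjusted p = 4.36e-17). The lone 786-O control had 61.9 CPM. Of the kinases that switch off pyruvate dehydrogenase, PDK1 was lower in A-498, with 12 and 12.4 CPM against 38, 37.7 and 39.9 CPM in ACHN (log2 difference -1.65, SE 0.0604, adjusted p = 1.01e-15). PDK2 was higher, with 24.2 and 23.6 CPM in A-498 against 5.88, 5.61 and 6.02 CPM in ACHN (log2 difference 2.04, SE 0.0661, adjusted p = 1.32e-16). PDK3 was higher as well (log2 difference 1.32, adjusted p = 1.18e-09), and PDK4 was near 1.6 CPM in both lines (log2 difference 0.04, SE 0.173, adjusted p = 0.851). Of the sum of LDHA and LDHB per kb, LDHA, the lactate dehydrogenase subunit of glycolytic tissue, made up 77.4% in the 786-O control, 42.2% ± 0.466 (SD, n = 2) in A-498 and 24.8% ± 0.325 (SD, n = 3) in ACHN.

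With the mimic in A-498, the glucose transporters SLC2A1 and SLC2A3, LDHA and the mitochondrial pyruvate enzymes PC and PDHB fell by the largest amounts, and most other members moved by less. Of the 31 genes, 13 were lower, 11 were higher and 7 were not called (edgeR, with 52.5% of all genes called, 27% lower and 25.5% higher). The groups did not overlap in any of the 24 called genes, nor in 99.9% of all genes called. The median log2 fold change of the 31 was -0.06, beside 0.00 over all genes tested. Of the 24 called genes, 16 had an absolute log2 fold change under 0.5. The median absolute log2 fold change was 0.27 for the 31 genes and 0.30 over all genes tested. SLC2A1 and SLC2A3 were the 2 genes called at 2-fold or more, as were 8.34% of all genes. With the inhibitor in ACHN, 10 of 30 genes tested were lower, 4 were higher and 16 were not called (edgeR, with 31.7% of all genes called, 14.4% lower and 17.3% higher). The 4 that rose were SLC2A1, SLC2A3, PC and PDHB, and 2 of them, SLC2A3 and PC, passed 2-fold, beside 1.2% of all genes. Of the 14 called, 12 had an absolute log2 fold change under 0.5. The median absolute log2 fold change was 0.12 for the 30 genes and 0.16 over all genes tested. In 2 of the 14, TPI1 and PGAM1, the libraries of the groups overlapped (95.2% of all genes called had no overlap). In 786-O, where 1 library per group allows no test, 4 of 30 genes were at least 1.5-fold lower and 0 were as much higher, beside 34.7% of all genes past that size in either direction and 19% lower. These 4 were again SLC2A1, SLC2A3, PC and PDHB.

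**Figure D2:**
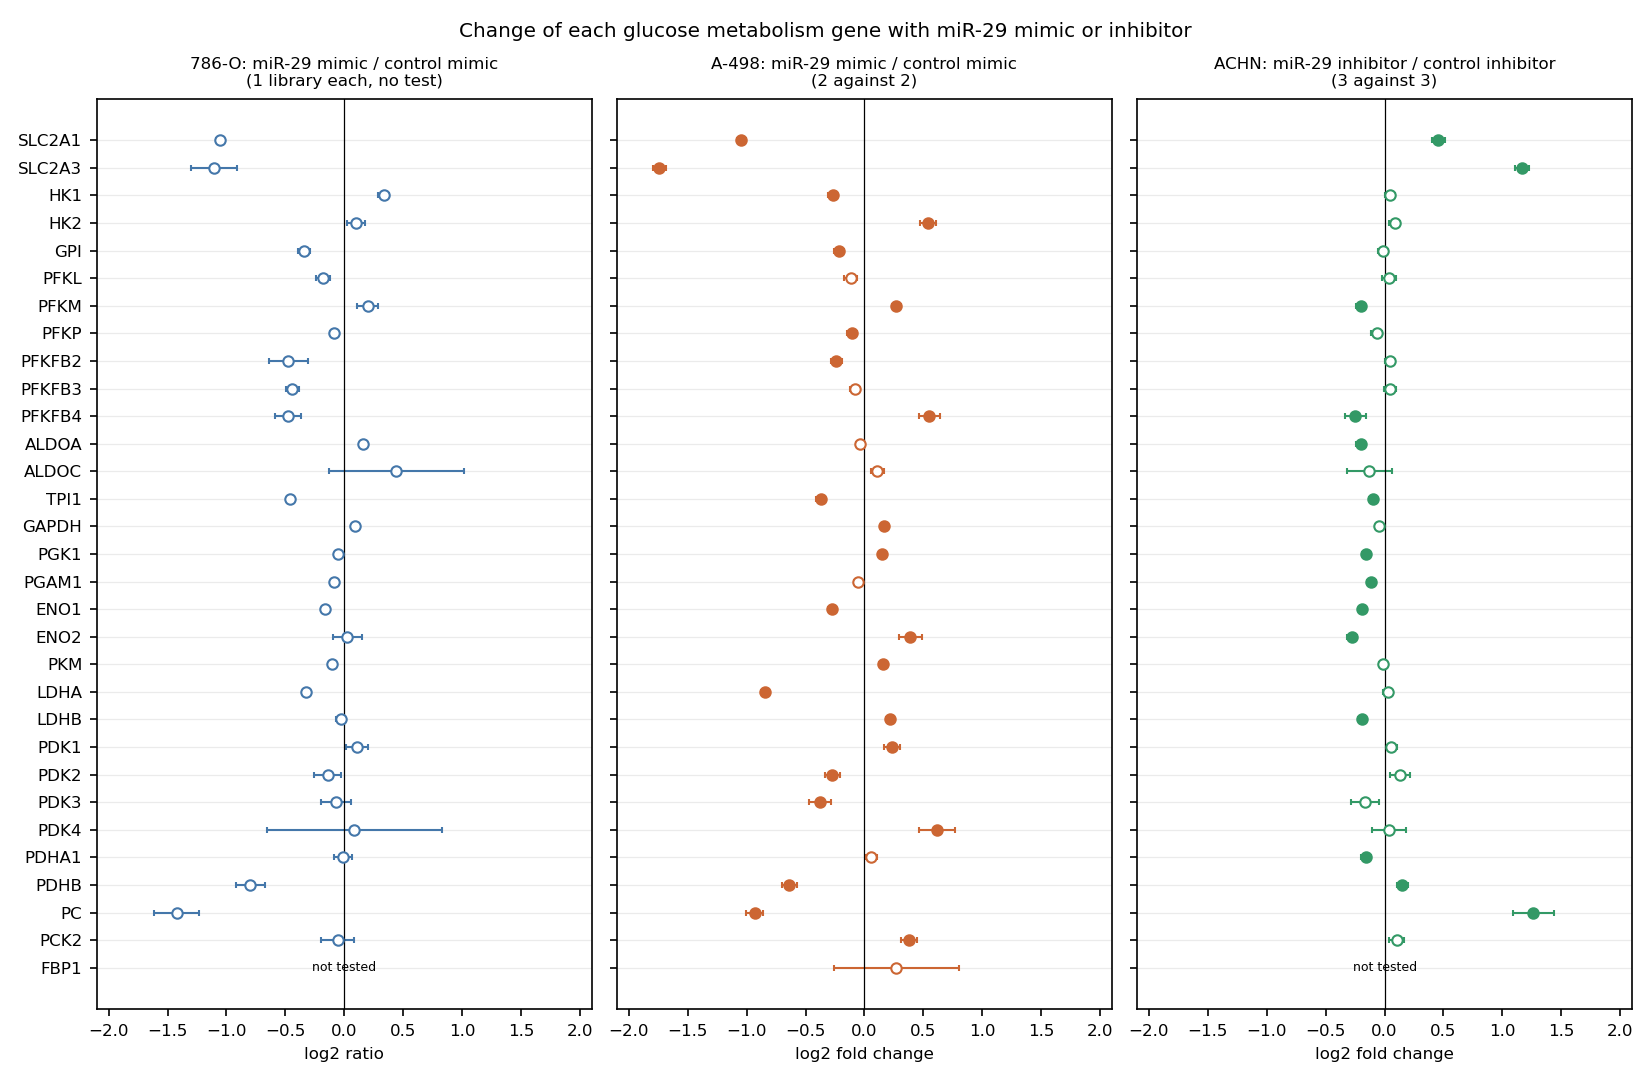
Change of each gene with the miR-29 mimic or inhibitor, as log2 of treated over control. The 786-O panel shows ratios of 1 library to 1 with bars for the 95% counting interval, and the A-498 (2 against 2) and ACHN (3 against 3) panels show edgeR fold changes with bars for the SE, filled where called. SLC2A1, SLC2A3, PDHB and PC lie left of 0 in both mimic panels and right of 0 in the inhibitor panel.

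SLC2A1 (ENSG00000117394, GRCh38 chromosome 1, 42925353 to 42958893, minus strand) encodes GLUT1, the widespread basal glucose transporter. In A-498 it had 414 and 396 CPM in the controls and 195 and 195 CPM with the mimic. That is 2.06-fold lower (log2 fold change -1.05, SE 0.0371, adjusted p = 2.55e-11). ACHN control libraries had 144, 155 and 164 CPM, against 205, 227 and 215 CPM with the inhibitor. Every inhibitor library lay above every control, at 1.37-fold (log2 fold change 0.46, SE 0.0533, adjusted p = 2.88e-06). The 786-O libraries had 465 CPM with the control mimic and 230 CPM with the miR-29 mimic, a log2 ratio of -1.05 (95% counting interval -1.09 to -1.02). The mimic ratios of 786-O and A-498 differed by 0.04 on the log2 scale (SE 0.0659, edgeR adjusted p = 0.741).

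SLC2A3 (ENSG00000059804, chromosome 12, 7919230 to 8019007, minus strand) encodes GLUT3, a transporter of high affinity, and is the transporter with a seed match. It had 51.1 and 51.6 CPM in the A-498 controls and 14.8 and 15.6 CPM with the mimic. At 3.35-fold lower this was the largest change of any of the 31 genes in A-498 (log2 fold change -1.74, SE 0.0561, adjusted p = 9.88e-12). The level in ACHN was 13.6, 14.3 and 12.6 CPM in the controls and 31.3, 30.3 and 30.6 CPM with the inhibitor. The groups were well apart, at 2.24-fold (log2 fold change 1.17, SE 0.0597, adjusted p = 6.03e-11). For 786-O the levels were 15 CPM with the control mimic and 7.14 CPM with the miR-29 mimic. SLC2A14, a close copy whose reads could be confused with those of SLC2A3, had at most 0.25 CPM in any library. Reads that mapped equally well to both genes may be missing from both, so this level does not measure the confusion. Of the 2 transporters together, per kb, SLC2A3 made up 10.4% ± 0.352 (SD, n = 2) in the A-498 controls and 6.67% ± 0.231 with the mimic, and 7.38% ± 0.741 (SD, n = 3) in the ACHN controls and 11.5% ± 0.696 with the inhibitor.

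**Figure D3:**
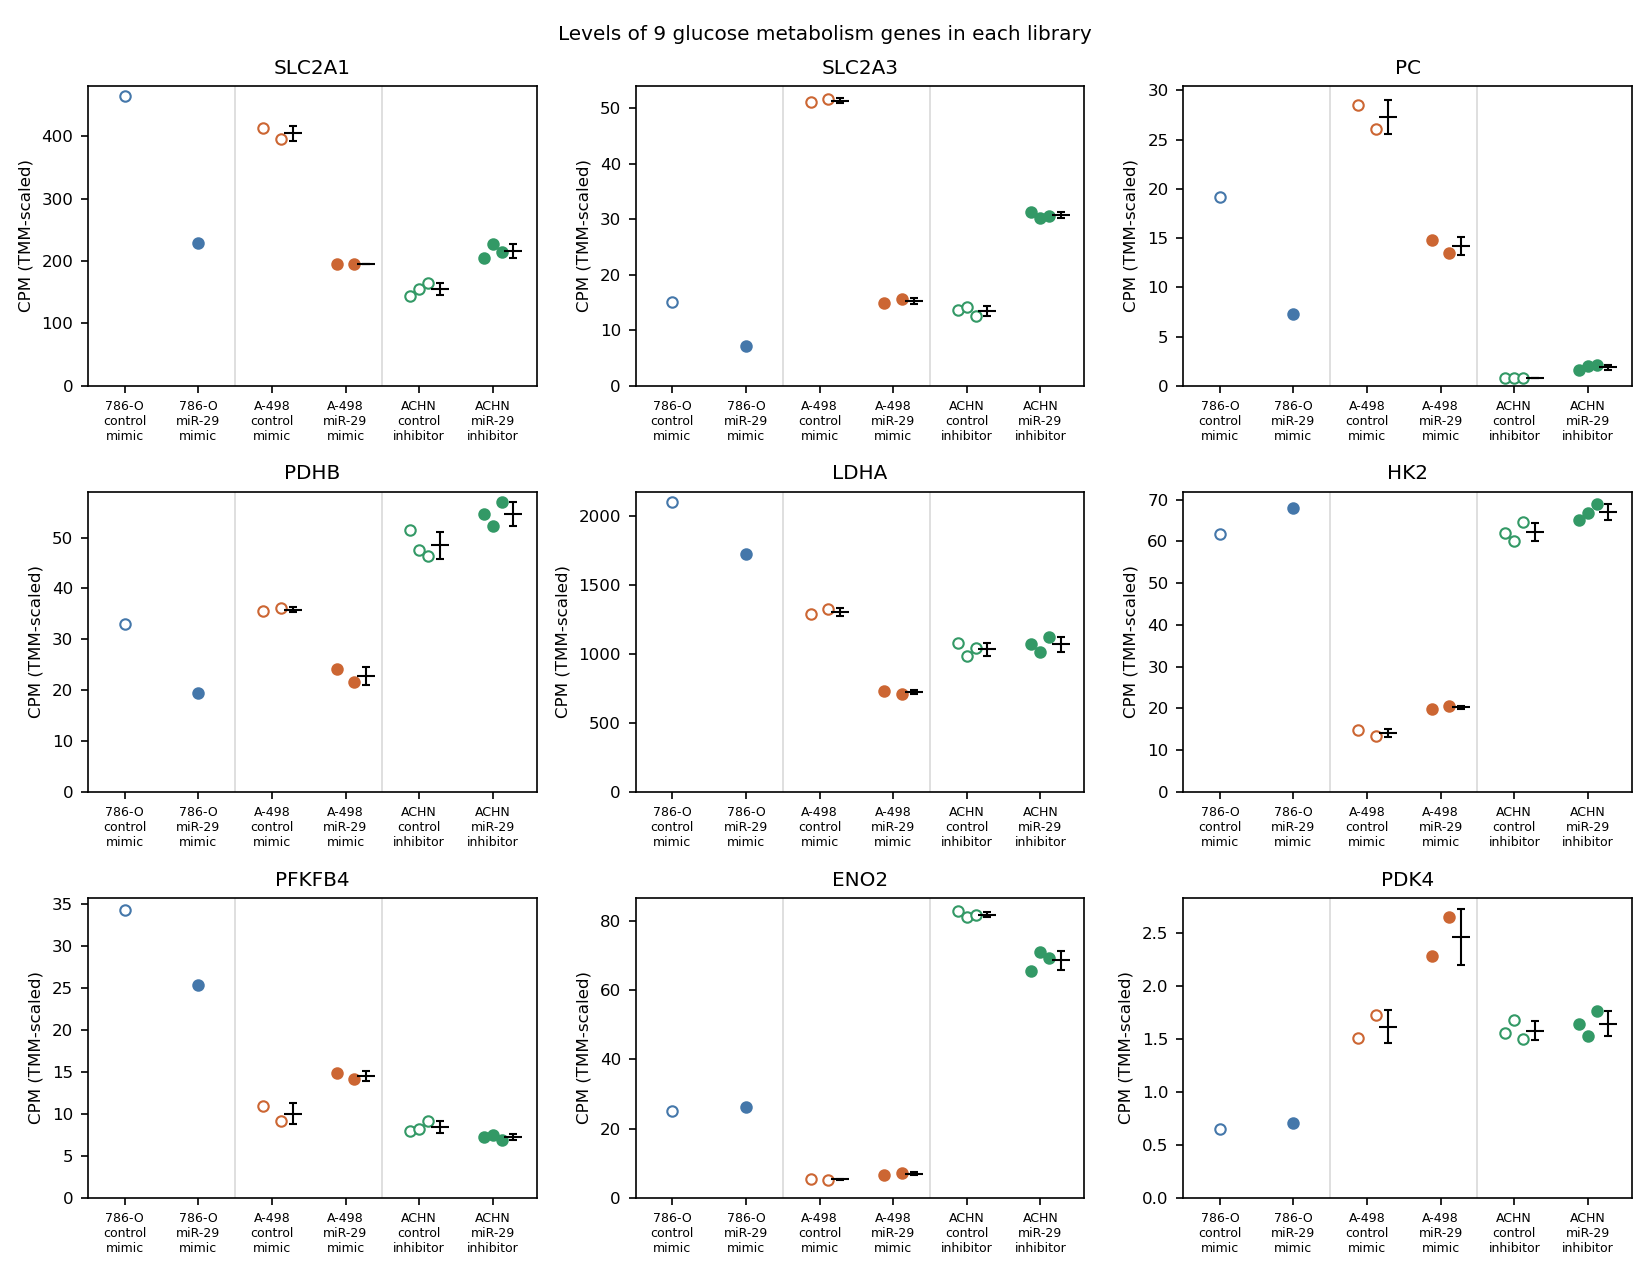
Levels of 9 genes in each library, as CPM on linear axes from 0, with open points for control libraries, filled points for miR-29 mimic or inhibitor libraries, and the mean and SD beside groups of 2 or 3. SLC2A1, SLC2A3, PC and PDHB lie below their controls in both lines given the mimic and above them in ACHN given the inhibitor, whereas LDHA is lower with the mimic and overlaps between the ACHN groups.

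Of the hexokinases, HK1, the constitutive form, was lower in A-498 (log2 fold change -0.27, SE 0.0396, adjusted p = 5.07e-05), and HK2 was higher. HK2 had 14.7 and 13.4 CPM in the A-498 controls and 19.9 and 20.5 CPM with the mimic, 1.45-fold (log2 fold change 0.54, SE 0.0692, adjusted p = 1.43e-05). In ACHN it had 61.9, 60.1 and 64.6 CPM in the controls and 65.1, 66.9 and 69 CPM with the inhibitor, and was not called although the libraries did not overlap (log2 fold change 0.08, SE 0.0445, adjusted p = 0.164). In 786-O it had 61.9 CPM with the control mimic and 68 CPM with the miR-29 mimic. HK1 differed in direction between the mimic lines, with a log2 ratio of 0.33 in 786-O. GPI, the isomerase of the next step, has a seed match and was 1.16-fold lower in A-498 (log2 fold change -0.21, SE 0.0414, adjusted p = 0.000554). In ACHN it was not called (log2 fold change -0.01, SE 0.0433, adjusted p = 0.872).

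The 3 phosphofructokinase genes moved by little. PFKM, the muscle type, had 126 and 121 CPM in the A-498 controls and 150 and 145 CPM with the mimic (log2 fold change 0.27, SE 0.0406, adjusted p = 6.04e-05). ACHN control libraries had 233, 231 and 235 CPM, against 201, 207 and 208 CPM with the inhibitor (log2 fold change -0.20, SE 0.04, adjusted p = 0.000676). It thus rose with the mimic and fell with the inhibitor, with no overlap in either line, and the 786-O libraries had 41.4 CPM with the control mimic and 48.7 CPM with the miR-29 mimic. PFKP, the platelet type and the most abundant of the 3 per kb, was only just called lower in A-498 (log2 fold change -0.11, SE 0.0424, adjusted p = 0.047) and was not called with DESeq2 (adjusted p = 0.0693), nor without control replicate 1 or either mimic replicate (adjusted p from 0.0804 to 0.319). PFKL, the liver type, was not called in A-498 or in ACHN. PFKM made up 19.7% ± 0.465 (SD, n = 2) of the 3 per kb in the A-498 controls and 24.2% ± 1.10 with the mimic.

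PFKFB3, the family member with the strongest kinase activity, had 130 and 128 CPM in the A-498 controls and 118 and 124 CPM with the mimic (log2 fold change -0.08, SE 0.0415, adjusted p = 0.108). The level in ACHN was 134, 131 and 143 CPM in the controls and 135, 149 and 143 CPM with the inhibitor, and the groups overlapped. For 786-O the levels were 134 CPM with the control mimic and 101 CPM with the miR-29 mimic. PFKFB4, a hypoxia-responsive member, had 10.9 and 9.11 CPM in the A-498 controls and 14.9 and 14.1 CPM with the mimic (log2 fold change 0.55, SE 0.0866, adjusted p = 9.18e-05). In ACHN it had 7.9, 8.16 and 9.17 CPM in the controls and 7.25, 7.51 and 6.82 CPM with the inhibitor (log2 fold change -0.25, SE 0.0861, adjusted p = 0.0345). In 786-O it was lower, with 34.3 CPM with the control mimic and 25.3 CPM with the miR-29 mimic. PFKFB2 was lower in A-498 (log2 fold change -0.24, adjusted p = 0.000691) and not called in ACHN.

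From aldolase to pyruvate kinase, none of the 9 genes changed by as much as 1.5-fold with the mimic in A-498 or with the inhibitor in ACHN. ALDOA had 1760 and 1652 CPM in the A-498 controls and 1639 and 1654 CPM with the mimic, with overlap (log2 fold change -0.04, SE 0.0332, adjusted p = 0.348). ACHN control libraries had 1335, 1307 and 1389 CPM, against 1157, 1252 and 1151 CPM with the inhibitor, a fall without overlap (log2 fold change -0.20, SE 0.0382, adjusted p = 0.000483). The 786-O libraries had 1090 CPM with the control mimic and 1246 CPM with the miR-29 mimic. TPI1, triose phosphate isomerase, was lower in both tested lines, with log2 fold changes of -0.37 in A-498 (adjusted p = 7.9e-07) and -0.10 in ACHN (adjusted p = 0.0304), as was ENO1, with -0.28 (adjusted p = 5e-06) and -0.19 (adjusted p = 5.35e-05). The 4 annotated pseudogene copies of TPI1 held 1.65% to 2.39% of the reads counted in the gene and its copies, and reads that mapped equally well to a copy may be missing from the gene.

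GAPDH was slightly higher in A-498 (log2 fold change 0.17, SE 0.0262, adjusted p = 9.77e-05), as were PGK1, phosphoglycerate kinase (0.15, SE 0.0307, adjusted p = 0.000854), and PKM (0.15, SE 0.0297, adjusted p = 0.00052). The call of PGK1 was lost without mimic replicate 1 (adjusted p = 0.0562). In ACHN, PGK1 was lower (log2 fold change -0.16, SE 0.0361, adjusted p = 0.0026) and GAPDH and PKM were not called. ENO2 had 5.46 and 5.17 CPM in the A-498 controls and 6.64 and 7.19 CPM with the mimic (log2 fold change 0.39, SE 0.0948, adjusted p = 0.00314). In ACHN, where it is abundant, it had 82.8, 81.2 and 81.6 CPM in the controls and 65.6, 71.1 and 69.3 CPM with the inhibitor (log2 fold change -0.28, SE 0.0457, adjusted p = 0.000129). In 786-O it had 25 CPM with the control mimic and 26.1 CPM with the miR-29 mimic. ALDOC had 26.7 and 26.4 CPM in A-498 with the mimic, 0.976, 0.927 and 0.844 CPM in ACHN with the inhibitor, and 0.972 CPM in 786-O with the control mimic against 1.37 CPM with the miR-29 mimic. It was not called in either tested line, and neither was PGAM1, phosphoglycerate mutase, in A-498.

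The lactate dehydrogenase subunits moved apart in A-498. LDHA (ENSG00000134333, chromosome 11, 18394560 to 18408425, plus strand) had 1288 and 1329 CPM in the controls and 731 and 712 CPM with the mimic, 1.8-fold lower (log2 fold change -0.85, SE 0.0324, adjusted p = 5.48e-11). LDHB, the subunit of oxidative tissue, had 884 and 888 CPM in the controls and 1018 and 1020 CPM with the mimic (log2 fold change 0.21, SE 0.0305, adjusted p = 3.87e-05). LDHA per kb was 42.2% ± 0.466 of the sum of the subunits in the controls and 26% ± 0.379 (SD, n = 2) with the mimic, with no overlap.

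In ACHN, LDHA had 1078, 983 and 1042 CPM in the controls and 1076, 1014 and 1124 CPM with the inhibitor, and the groups overlapped (log2 fold change 0.03, SE 0.0386, adjusted p = 0.625). LDHB had 1600, 1506 and 1551 CPM in the controls and 1383, 1336 and 1429 CPM with the inhibitor, and fell without overlap (log2 fold change -0.19, SE 0.0322, adjusted p = 0.000169). The LDHA share was 24.8% ± 0.325 in the ACHN controls and 27.7% ± 0.368 (SD, n = 3) with the inhibitor. The 786-O libraries had 2107 CPM of LDHA with the control mimic and 1729 CPM with the miR-29 mimic, and 305 and 306 CPM of LDHB.

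Pyruvate carboxylase was among the most changed genes of the group in all 3 lines. PC (ENSG00000173599, chromosome 11, 66848417 to 66958386, minus strand) had 28.5 and 26.1 CPM in the A-498 controls and 14.8 and 13.5 CPM with the mimic, 1.91-fold lower (log2 fold change -0.93, SE 0.07, adjusted p = 5.62e-08). For 786-O the levels were 19.2 CPM with the control mimic and 7.3 CPM with the miR-29 mimic, a log2 ratio of -1.42 (95% counting interval -1.61 to -1.24) and the lowest of the 30 genes there. The level in ACHN was 0.769, 0.757 and 0.775 CPM in the controls and 1.56, 2.01 and 2.06 CPM with the inhibitor, 2.40-fold higher (log2 fold change 1.26, SE 0.173, adjusted p = 1.77e-05). The groups did not overlap, but the ACHN values rest on 31 to 37 reads per control library and 96 to 139 per inhibitor library. The LRFN4 gene overlaps PC on the other strand. The libraries were stranded, and whether LRFN4 reads entered the counts of PC was not tested.

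Of the pyruvate dehydrogenase complex, the subunits PDHB and PDHA1 behaved differently from each other. PDHB (ENSG00000168291, chromosome 3, 58427630 to 58433857, minus strand), the beta subunit of its first enzyme, had 35.5 and 36.2 CPM in the A-498 controls and 24 and 21.6 CPM with the mimic (log2 fold change -0.64, SE 0.0614, adjusted p = 7.55e-07). In 786-O it had 33 CPM with the control mimic and 19.5 CPM with the miR-29 mimic. In ACHN it had 51.4, 47.5 and 46.4 CPM in the controls and 54.7, 52.2 and 57.1 CPM with the inhibitor, a small rise without overlap (log2 fold change 0.15, SE 0.0472, adjusted p = 0.0199) that was lost when any of 4 libraries was left out. These were control replicates 2 and 3 and inhibitor replicates 1 and 3, with adjusted p from 0.0623 to 0.124. PDHA1, the alpha subunit, which has a seed match, was not called in A-498 (log2 fold change 0.06, SE 0.0472, adjusted p = 0.329) and was lower in ACHN (log2 fold change -0.16, SE 0.0433, adjusted p = 0.00902). DLAT, DLD and PDHX, neighbours in the same complex named after their values were seen, were called lower in A-498 (-0.16, -0.61 and -0.50). Their 786-O log2 ratios were -0.72, -1.23 and -1.46. In ACHN, PDHX had 32.0 to 37.2 CPM in the controls and 42.3 to 47.3 CPM with the inhibitor. DLAT had 89.9 to 90.4 CPM and 75.7 to 81.8 CPM, and DLD overlapped.

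Of the 4 kinases that inactivate the complex, PDK2 and PDK3 fell and PDK1 and PDK4 rose in A-498, and none was called in ACHN. PDK1 had 12 and 12.4 CPM in the A-498 controls and 14 and 14.6 CPM with the mimic (log2 fold change 0.23, SE 0.0706, adjusted p = 0.0127), was not called with DESeq2 (adjusted p = 0.0525) and was not called without mimic replicate 2 (adjusted p = 0.134). ACHN control libraries had 38, 37.7 and 39.9 CPM, against 40.7, 40 and 41.4 CPM with the inhibitor, and the 786-O libraries had 40.7 and 45.1 CPM with the control and miR-29 mimic. PDK2 had 24.2 and 23.6 CPM in the A-498 controls and 18.9 and 20.4 CPM with the mimic (log2 fold change -0.27, SE 0.0627, adjusted p = 0.00219), a call lost without mimic replicate 1 (adjusted p = 0.0526). PDK2 had 6.49, 6.51 and 6.51 CPM with the inhibitor in ACHN, and 29.5 and 27.5 CPM in 786-O with the control and miR-29 mimic. PDK3 fell in A-498 with a log2 fold change of -0.38 (SE 0.0931, adjusted p = 0.00345).

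PDK4, the starvation-responsive kinase, has a seed match and was low in all libraries. It had 1.5 and 1.72 CPM in the A-498 controls and 2.28 and 2.65 CPM with the mimic, 1.53-fold higher (log2 fold change 0.62, SE 0.155, adjusted p = 0.00404). The level in ACHN was 1.56, 1.68 and 1.5 CPM in the controls and 1.64, 1.53 and 1.76 CPM with the inhibitor, with overlap. The 786-O libraries had 28 and 30 reads of it with the control and miR-29 mimic, 0.648 and 0.709 CPM. Of the 4 genes with a seed match in the main transcript, SLC2A3 and GPI were thus lower with the mimic in A-498, PDK4 was higher and PDHA1 was not called.

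The gluconeogenic genes were PCK2, the mitochondrial enzyme that makes phosphoenolpyruvate, and FBP1. PCK2 rose in A-498 (log2 fold change 0.38, SE 0.068, adjusted p = 0.000303) and was not called in ACHN (log2 fold change 0.10, SE 0.0612, adjusted p = 0.226). FBP1 had 0.107 and 0.181 CPM in the A-498 controls, 0.228 and 0.117 CPM with the mimic, 0.0831, 0.071 and 0.15 CPM in the ACHN controls, and 0.146, 0.135 and 0.0888 CPM with the inhibitor. The 786-O libraries had 1 and 2 reads of it. At 1 to 15 reads per library, a difference in FBP1 was not detectable at this depth, and it was left out of the ACHN test by the filter on low counts.

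The mimic and inhibitor experiments used different lines and share no library. Of the 30 genes tested in both, 11 were called in both (36.7%, beside 23.2% of 16708 genes tested in both). In 9 of the 11 the directions were opposite, beside 17.9% of all genes tested in both that were called in opposite directions and 76.9% of those called in both. SLC2A1, SLC2A3, PC and PDHB fell with the mimic and rose with the inhibitor. PFKM, PFKFB4, PGK1, ENO2 and LDHB rose with the mimic and fell with the inhibitor, each by less than 1.5-fold. TPI1 and ENO1 were lower in both. The ACHN calls of PFKFB4, TPI1 and PGAM1 were lost when any of several libraries was left out, with PFKFB4 at adjusted p of 0.175 without control replicate 3, TPI1 at 0.154 without the same library and PGAM1 at 0.13 without control replicate 1.

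**Figure D4:**
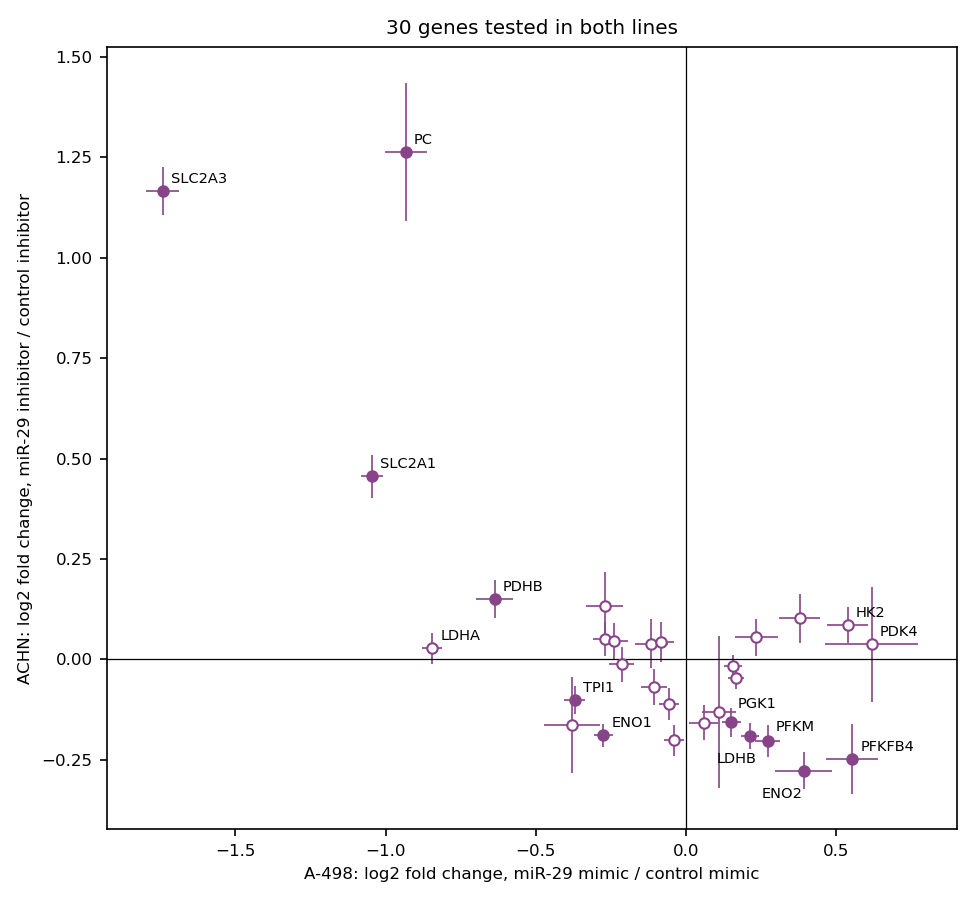
Log2 fold change with the inhibitor in ACHN (vertical) against that with the mimic in A-498 (horizontal) for the 30 genes tested in both, with bars for the SE and filled points for genes called in both lines. SLC2A3, PC and SLC2A1 stand apart at the upper left, PDHB lies nearer the centre, and LDHA is low with the mimic and close to 0 with the inhibitor.

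The mimic was given to both 786-O and A-498. Of the 24 genes called in A-498, 18 had a 786-O ratio on the same side of 0, 12 of them lower and 6 higher. That is 75%, beside 69.9% of all genes called in A-498 that had a 786-O ratio, so the group's share lay near that of all genes. By direction it was 12 of 13 genes called lower (92.3%, beside 73.3% of all such genes). Of those called higher it was 6 of 11 (54.5%, beside 66.1%). These counts go by the sign of the ratio alone. The 786-O counting interval covered 0 for LDHB, PCK2, ENO2, PDK3 and PDK4. The difference between the mimic's effects in the lines was called for 13 of 31 genes (edgeR interaction, 29.6% of all genes called), 8 with a lower and 5 with a higher ratio in 786-O. None of the 13 differed by as much as 2-fold, beside 7.65% of all genes. The spread in this fit comes from the A-498 libraries alone, since 786-O has 1 library per group, and with a biological coefficient of variation of 0.2 set in its place (edgeR's likelihood ratio test) none of the 31 was called, and 0 had an unadjusted p under 0.05. The log2 ratio of LDHA was nearer 0 in 786-O (-0.32) than in A-498 (difference 0.57, SE 0.054, adjusted p = 9.53e-08), as was that of SLC2A3 (difference 0.68, SE 0.13, adjusted p = 0.000446). The log2 values of PFKFB4 lay on opposite sides of 0 (difference -0.99, SE 0.134, adjusted p = 1.01e-05).

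Genes around the pathway were taken from 4 lists. Of 29 other genes of glucose and lactate transport and glycolysis tested in A-498, 9 were lower and 13 higher, and of 23 tested in ACHN, 5 were lower and 8 higher. Of 12 genes of pyruvate entry and its control, 5 were lower and 2 higher in A-498, and 2 were lower and 4 higher in ACHN. Of 7 genes of the pentose phosphate pathway, which branches off at glucose-6-phosphate, 3 were lower and 1 was higher in each line. Of the transcription regulators of glycolysis, 6 of 11 were lower and 2 higher in A-498, and 3 of 9 were lower and 4 higher in ACHN. Over all genes tested, 27% were lower and 25.5% higher in A-498, and 14.4% were lower and 17.3% higher in ACHN.

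Of the genes that move lactate across the membrane, SLC16A1 and SLC16A3 shifted in the same directions as SLC2A1 and SLC2A3. SLC16A1, which encodes MCT1, had 228 and 243 CPM in the A-498 controls and 104 and 102 CPM with the mimic (log2 fold change -1.18, SE 0.0413, adjusted p = 2.16e-11). In ACHN it had 272, 258 and 258 CPM in the controls and 312, 280 and 310 CPM with the inhibitor (log2 fold change 0.17, SE 0.0443, adjusted p = 0.00544), and in 786-O 245 and 76.4 CPM with the control and miR-29 mimic. SLC16A3, which encodes the lactate exporter MCT4, had 310 and 286 CPM in the A-498 controls and 187 and 203 CPM with the mimic (log2 fold change -0.60, SE 0.0481, adjusted p = 1.1e-07). Its ACHN level was far lower, with 7.67, 7.41 and 7.72 CPM in the controls, and rose to 11.8, 12.2 and 12 CPM with the inhibitor (log2 fold change 0.64, SE 0.0721, adjusted p = 2.04e-06). In 786-O it had 231 and 121 CPM with the control and miR-29 mimic. Neither transporter overlapped between the groups in A-498 or ACHN. The list holds further monocarboxylate transporters, and 2 of them, named after their values were seen, did not share this pattern. SLC16A7 fell with the mimic (log2 fold change -1.41, adjusted p = 1.11e-09) and was not called in ACHN (0.09, adjusted p = 0.204). SLC16A4 rose with the mimic (0.37, adjusted p = 2.33e-06) and fell with the inhibitor (-0.14, adjusted p = 0.0354).

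BPGM, which makes the bisphosphoglycerate that tunes haemoglobin in red cells, fell with the mimic in A-498 and rose with the inhibitor in ACHN (log2 fold changes -1.23 and 0.73, adjusted p = 1.48e-09 and 4.1e-08). MPC2, a subunit of the mitochondrial pyruvate carrier, had the same pattern (-0.63 and 0.21, adjusted p = 2.68e-08 and 0.000745). ENO3, the muscle enolase, rose with the mimic and fell with the inhibitor (0.65 and -0.68, adjusted p = 4.86e-05 and 4.28e-09). TXNIP, an arrestin-like protein that lowers glucose uptake, was higher in both, with 32.5 and 36 CPM in the A-498 controls against 70.5 and 72.8 CPM with the mimic (log2 fold change 1.08, SE 0.0549, adjusted p = 1.01e-09) and 198, 194 and 173 CPM in the ACHN controls against 281, 273 and 280 CPM with the inhibitor (log2 fold change 0.54, SE 0.0474, adjusted p = 8.38e-08). Its relative ARRDC4 fell with the mimic, from 38 ± 1.97 to 18.8 ± 0.964 CPM (SD, n = 2, adjusted p = 7.29e-09) and rose with the inhibitor (log2 fold change 0.55, adjusted p = 1.96e-06).

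**Figure D5:**
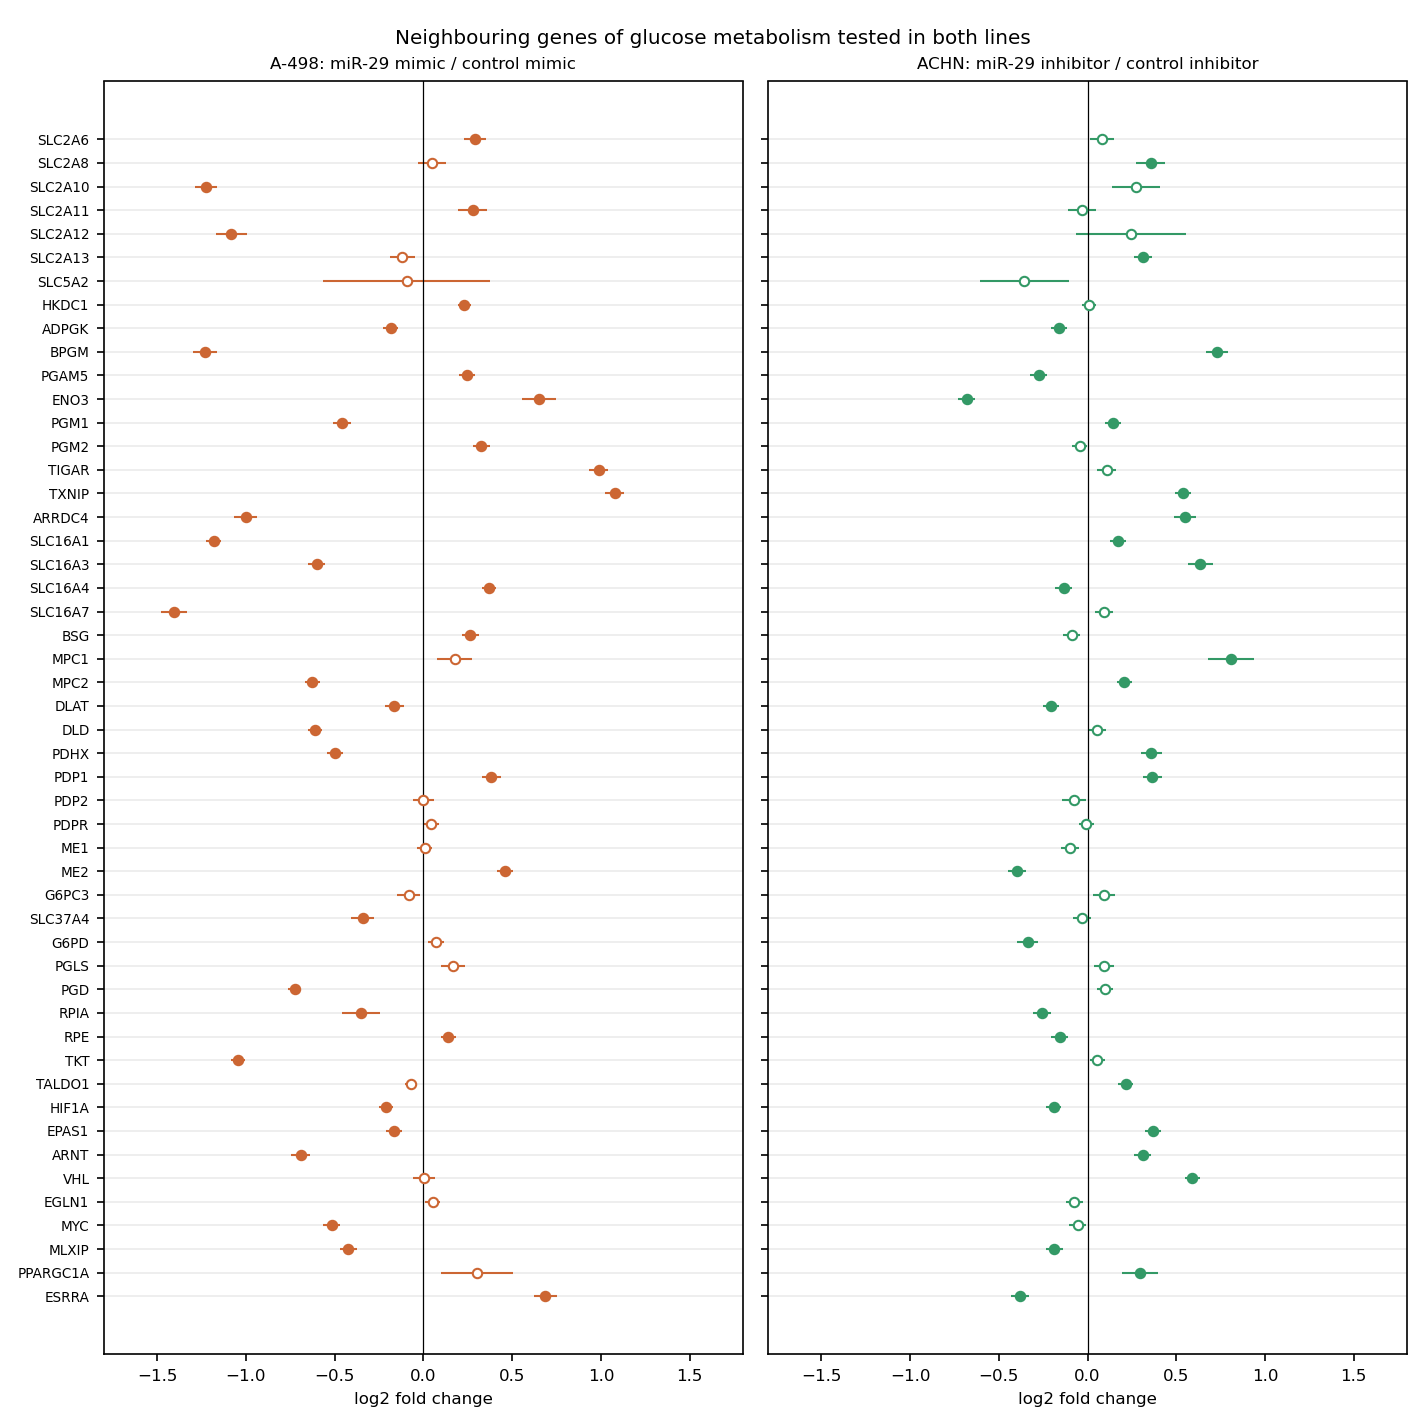
Log2 fold change of 50 neighbouring genes tested in both lines, with the mimic in A-498 (left) and the inhibitor in ACHN (right), bars for the SE and filled points where called. BPGM, SLC16A1 and SLC16A3 lie left of 0 with the mimic and right of 0 with the inhibitor, and TXNIP lies right of 0 in both panels.

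Among the transcription regulators, ARNT, the partner of the hypoxia-inducible factors, was lower with the mimic in A-498 (log2 fold change -0.69, SE 0.0539, adjusted p = 8.45e-08) and higher with the inhibitor in ACHN (0.31, SE 0.0488, adjusted p = 8e-05). EPAS1, which encodes HIF-2 alpha, shifted the same way (-0.17 and 0.37, adjusted p = 0.00643 and 6.12e-06). HIF1A was lower in both lines (-0.21 and -0.19, adjusted p = 0.00044 and 0.00207). VHL, part of the ligase that marks these factors for degradation, was not called in A-498 (log2 fold change 0.00, SE 0.0632, adjusted p = 0.972) and rose in ACHN (0.59, SE 0.0415, adjusted p = 5e-09). MYC, an activator of glycolytic genes, fell in A-498 (-0.52, SE 0.0487, adjusted p = 6.08e-07) and was not called in ACHN (-0.06, SE 0.047, adjusted p = 0.413). ESRRA, a nuclear receptor that drives mitochondrial genes, rose with the mimic in A-498 and fell with the inhibitor in ACHN (0.69 and -0.38, adjusted p = 6.42e-07 and 1.07e-05). The 786-O log2 ratios, without a test, were -0.50 for ARNT, 0.18 for EPAS1, -0.12 for HIF1A, -0.64 for VHL, -1.05 for MYC and 0.08 for ESRRA. EPAS1 thus lay on the other side of 0 from its A-498 value.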

How the data were processed

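RNA-seq libraries were rRNA-depleted and stranded. The authors aligned reads to GRCh38 with HISAT2, counted them per gene with HTSeq-count (intersection-strict mode, Ensembl annotation) and deposited raw counts, whose rows for unassigned reads (37.2% to 48.0% per library, with 16.7% to 25.8% of low alignment quality among them) were left out here. Leaving out such alignments can lower the counts of genes with pseudogenes. The authors' DESeq2 tables of fold changes and p-values were not used. Symbols, lengths and 3′ UTRs came from GENCODE on the same build (98.1% of IDs matched).

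Counts were tested with edgeR 4.0.16 (R 4.3.3) by its quasi-likelihood test, with TMM factors, filterByExpr and Benjamini-Hochberg adjustment over all genes, without a block. The SE is the absolute log2 fold change over the root of F. Levels are CPM with TMM factors over all 12 libraries. In 786-O, genes with at least 10 counts over both libraries got a log2 ratio (prior count 2) with a 95% interval that covers counting error only. Alternatives were library size alone, median-ratio factors, DESeq2 1.42.0, no filter, a threshold of 0.01, each library left out, and for ACHN the replicate number as a block.

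The genes, lists and rules were chosen with earlier results of these data known. Values in every library are given for SLC2A1, SLC2A3, HK2, PFKFB3, PFKFB4, LDHA, LDHB, PDK1, PDK4, FBP1 and the 8 genes of largest called change without overlap in each tested comparison. Neighbours are named where called in both lines at an absolute log2 fold change of at least 0.5 in either, or as SLC16A1, SLC16A3, TXNIP, HIF1A, EPAS1, VHL and MYC. The A-498 controls serve the mimic comparison, the baseline comparison and the interaction, and the ACHN controls serve the inhibitor and baseline comparisons, so these are not independent. The script was tested on simulated data. Replicates of a group differed by more than counting noise, with a chi-square of 3.87 to 12.2 per degree of freedom. 2 further A-498 libraries that the study set aside for possible mislabelling were not analysed here.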

Additional observations from a re-analysis of the deposited data

Results flagged for a closer look

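In 13 of the 31 genes the response to the mimic was called different in the 2 lines that received it by edgeR's interaction test (786-O minus A-498, log2 scale). The difference was positive for SLC2A3 (0.68, adjusted p = 0.000446), HK1 (0.65, adjusted p = 5.84e-07), LDHA (0.57, adjusted p = 9.53e-08), ALDOA (0.24, adjusted p = 0.0029) and ENO1 (0.16, adjusted p = 0.0325). It was negative for PFKFB4 (-0.99, adjusted p = 1.01e-05), PC (-0.45, adjusted p = 0.0218), HK2 (-0.39, adjusted p = 0.00678), PCK2 (-0.39, adjusted p = 0.0204), PFKFB3 (-0.31, adjusted p = 0.00308), PKM (-0.22, adjusted p = 0.00248), LDHB (-0.20, adjusted p = 0.011) and PGK1 (-0.16, adjusted p = 0.0418). In 7 of the 13 the log2 values of the lines had opposite signs. In 786-O and A-498 they were -0.48 and 0.55 for PFKFB4, 0.33 and -0.27 for HK1, -0.06 and 0.38 for PCK2, -0.03 and 0.21 for LDHB, -0.11 and 0.15 for PKM, -0.05 and 0.15 for PGK1, and 0.16 and -0.04 for ALDOA, which was not called in A-498. The 786-O counting interval covered 0 for PCK2 (-0.198 to 0.0836) and LDHB (-0.0673 to 0.00275), so their direction in 786-O was not settled. Scaled over all 12 libraries, LDHB had 305 CPM in 786-O with the control mimic and 306 CPM with the miR-29 mimic. With the spread of all 12 libraries, PGK1, ENO1 and LDHB were not called, and with a biological coefficient of variation of 0.2 none of the 13 was, and 281 of 22587 genes were.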

How the results depend on the processing

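The counts of genes called in A-498, in ACHN and between the control lines stayed within 1.5 times under library size alone, median-ratio factors, DESeq2, no filter on low counts and a threshold of 0.01. Leaving out each library in turn gave 11 to 17 genes lower and 10 to 11 higher in A-498, 7 to 11 lower and 3 to 4 higher in ACHN, and 13 to 15 lower and 12 to 14 higher between the control lines. A lone library left in a group is assumed to vary like the others. SLC2A1, SLC2A3 and PC kept their calls in both lines, and LDHA in A-498, under each of these alternatives. With library size alone, 3 genes in place of 5 had a higher mimic effect in 786-O than in A-498, and with a biological coefficient of variation of 0.2 the counts were 0 lower and 0 higher. The cause was not tested.

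Signs changed only in values called under neither setting. With library size alone, ALDOA became 0.037 and PGAM1 0.0185 in A-498, and the difference between mimic lines became -0.0605 for SLC2A1, -0.0287 for PFKP and -0.0821 for PGAM1. With no filter, GPI became 0.000667 in ACHN. With single libraries left out, values ran from -0.307 to 0.687 for FBP1 in A-498, from -0.056 to 0.00956 for GPI, -0.258 to 0.0194 for ALDOC, -0.00782 to 0.0553 for LDHA, -0.0464 to 0.0834 for PFKL, -0.00284 to 0.0796 for PFKFB3 and -0.0118 to 0.083 for PDK4 in ACHN, and from -0.0812 to 0.135 for PDK4 between the controls.

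With the replicate number as a block in ACHN, 10 genes were lower and 4 higher, as without it. Deviations of same-numbered libraries correlated at 0.108, -0.0967 and -0.0315. With 3 libraries per group such deviations depend on each other, so these values cannot decide whether the numbers pair the samples. In the other lines no paired analysis was possible, because the A-498 groups share only 1 replicate number and 786-O has 1 library per group. Scaling by library size alone moved the median of all genes by 0.0762 in A-498. In 786-O, 7 of 30 ratios moved beyond their counting interval under that scaling. Depth limits FBP1 in all lines, PC in ACHN, and ALDOC and PDK4 in ACHN and 786-O.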
